A study of Homo sapiens with 16 samples.

Results

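The mitochondrial calcium uniporter complex was followed as 8 genes, the pore subunits MCU and MCUB, the gatekeepers MICU2 and MICU3, the small subunit SMDT1, the assembly factor MCUR1, and the inner membrane exchangers LETM1 and SLC8B1. They were taken by gene symbol from the 26410 genes of the deposited RNA-seq tables. Of the 8, 7 had a row and 1, SMDT1, was not analysed here. All 7 reached the minimum of 1 normalized CPM (reads scaled to library size with the authors' normalization) in each of the 16 libraries, so none was lost to a filter on low values.

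The cells were SH-SY5Y, an established line from a human neuroblastoma. The libraries came from 2 clones labelled KO (KO11 and KO28), in which TRPM2, a calcium-permeable cation channel, was cut with CRISPR, and from 2 clones given a scrambled guide (Scr13 and Scr16). All 4 clones carried GFP and had been selected with puromycin. Each clone was sequenced in 2 replicates untreated and in 2 replicates after 24 h of doxorubicin, a drug that damages DNA, which gave 4 groups of 4 libraries. The dose was 0.3 µM in the sample labels and in the paper's supplement on the RNA-seq, and 3 µM in the design text of the series. Libraries held 10481177 to 25086085 reads on genes, with medians of 17266897.5 in untreated Scr, 15735288.5 in untreated KO, 15773166 in Scr after doxorubicin and 15976793 in KO after doxorubicin. A genotype was represented by 2 clones only, so the genotype and differences between clones cannot be told apart beyond what 2 against 2 clones allow. The study's methods call the 2 replicates of a clone biological, without saying whether they were separate cultures, and p-values measure only the spread between these libraries.

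The uniporter is a channel of the inner mitochondrial membrane that lets calcium flow into the matrix, driven by the membrane potential. MCU forms the pore, and MCUB is a close relative that joins the pore and lowers its conductance. MICU proteins sense calcium on the outer side and open or close the pore, SMDT1 (also called EMRE) couples them to it, and MCUR1 serves as a scaffold for assembly. LETM1 exchanges cations for protons, and SLC8B1 (also called NCLX) returns calcium from the matrix in exchange for sodium. Calcium in the matrix activates dehydrogenases of the tricarboxylic acid cycle, and an overload opens the permeability transition pore.

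The guide against TRPM2 matched chr21:44353718-44353737 of GRCh38 on the + strand, in coding exon sequence 17 bases after the first coding base and next to the PAM AGG. It is shown because it defines the genotype.
TRPM2 guide: gaggaaagctggctcggagc
TRPM2 itself had 1.93 and 2.23 normalized CPM in untreated KO11 and 1.41 and 2.19 in untreated KO28. It had 0.118 and 0.115 in untreated Scr13 and 0 in both libraries of untreated Scr16. After doxorubicin it had 1.22 and 1.83 in KO11, 1.37 and 0.658 in KO28, 0.0594 and 0.0631 in Scr13, and 1.33 and 0.390 in Scr16. The reads of TRPM2 were thus low everywhere and, without treatment, higher in the libraries labelled KO. By the study's methods, only the start of the coding sequence was deleted and the rest was put out of frame. Reads were counted per gene and not per exon, so they do not check the deletion, and genotypes are named here as the libraries were labelled. The paper states that the clones were authenticated by RT-PCR and Western blotting. With the deletion it reports more p21 protein, and more p21 mRNA by RT-qPCR and, after doxorubicin, in its RNA-seq. CDKN1A, the gene of p21, had log2 fold changes of KO against Scr of 1.27 untreated and 1.13 after doxorubicin, with no overlap. Groups did not overlap for 9.29% of all genes tested untreated and for 13.2% after doxorubicin. These values come from the libraries of the paper's own RNA-seq, so they are no separate check of the labels. An exchange of labels was not tested.

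On GRCh38 with GENCODE 29, MCU (ENSG00000156026) lies at chr10:72692131-72887694 on the + strand, MCUB (ENSG00000005059) at chr4:109560205-109688726 on the + strand and MCUR1 (ENSG00000050393) at chr6:13786557-13814568 on the − strand. MICU2 (ENSG00000165487) lies at chr13:21492691-21604214 on the − strand, LETM1 (ENSG00000168924) at chr4:1811479-1856247 on the − strand and SLC8B1 (ENSG00000089060) at chr12:113298759-113359493 on the − strand. The exons of MCUB share 105 of their 3566 bases with those of CASP6 on the opposite strand. The use of strand in counting was not given in the sources used here, so reads on these shared bases cannot be assigned to 1 of the genes. SLC8B1 overlaps PLBD2 on the opposite strand, with 0 exonic bases in common.

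Promoter sequence is shown for MCU as the pore gene and for MCUB and MCUR1 as the genes called between genotypes. Both were called after doxorubicin only and close to the threshold, as given below. Each stretch covers 200 bases, from 250 to 51 bases before the RefSeq start, in the direction of the gene (GRCh38.p14). The stretches are chr10:72691893-72692092 (+) for MCU, chr4:109559996-109560195 (+) for MCUB and chr6:13814608-13814807 (−) for MCUR1. Capitals mark CCAAT, the CCAAT box, and GGGCGG, the GC box, on either strand.
MCU: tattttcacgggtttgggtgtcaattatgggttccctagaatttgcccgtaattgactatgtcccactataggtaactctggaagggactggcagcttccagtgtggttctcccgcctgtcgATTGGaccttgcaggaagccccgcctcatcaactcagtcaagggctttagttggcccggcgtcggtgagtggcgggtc
MCUB: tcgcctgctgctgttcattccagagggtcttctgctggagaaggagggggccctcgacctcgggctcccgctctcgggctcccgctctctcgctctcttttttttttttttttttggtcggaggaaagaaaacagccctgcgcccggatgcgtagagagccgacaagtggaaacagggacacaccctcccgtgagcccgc
MCUR1: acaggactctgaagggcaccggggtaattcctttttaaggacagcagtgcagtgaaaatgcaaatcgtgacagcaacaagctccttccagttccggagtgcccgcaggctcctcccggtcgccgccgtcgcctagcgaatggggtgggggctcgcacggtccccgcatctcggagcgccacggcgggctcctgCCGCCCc
Over 35116 RefSeq promoter stretches of the same length, CCAAT occurred on either strand in 27.4% and GGGCGG in 35.0%. MCU held 1 CCAAT and MCUR1 held 1 GGGCGG, and neither motif was in the stretch of MCUB. The core TGACG of the cyclic AMP response element, bound by CREB1, was in 16.0% of all stretches and the full TGACGTCA in 0.951%, and neither was in the 3 stretches shown. Of the 8 genes, 6 had an entry, and TGACG occurred in that of SMDT1 only. CREB1, chosen after its values were seen, had 107 ± 4.22 normalized CPM in untreated Scr, 104 ± 13.4 in untreated KO, 99.4 ± 8.22 in Scr after doxorubicin and 102 ± 3.76 in KO after doxorubicin (SD, n = 4 each).

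Levels were first put on a scale per length, normalized CPM per kilobase of exon, over the 16 libraries. The length was all exonic bases annotated for a gene over its transcripts, whichever of them was expressed. The scaffold MCUR1 was the highest with 17.3 ± 1.81 CPM per kilobase (SD, n = 16), followed by the exchanger LETM1 with 14.1 ± 1.39 CPM per kilobase. The gatekeeper MICU2 had 6.18 ± 0.819, the pore MCU 3.98 ± 0.613, and MCUB 2.96 ± 0.859 CPM per kilobase. MICU3 had 1.52 ± 0.360 and SLC8B1 1.10 ± 0.243 CPM per kilobase, the lowest of the 7. Both ends of this order depended on the length. In mean normalized CPM, LETM1 (115) was above MCUR1 (105), and SLC8B1 (7.47) was above MICU3 (6.98). The ranges of LETM1 and MICU2, and of MICU2 and MCU, did not overlap over the 16 libraries. The other neighbours overlapped. MCUR1 exceeded LETM1 in 15 of 16 libraries, MCU exceeded MCUB in 14, MCUB exceeded MICU3 in 15 and MICU3 exceeded SLC8B1 in 13. In reads, MICU3 had 45 to 213 per library, SLC8B1 71 to 219 and MCUB 86 to 366, while MCUR1 had 1318 to 2767 and LETM1 1135 to 3049, so the low genes carried a larger counting error.

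**Figure D1:**
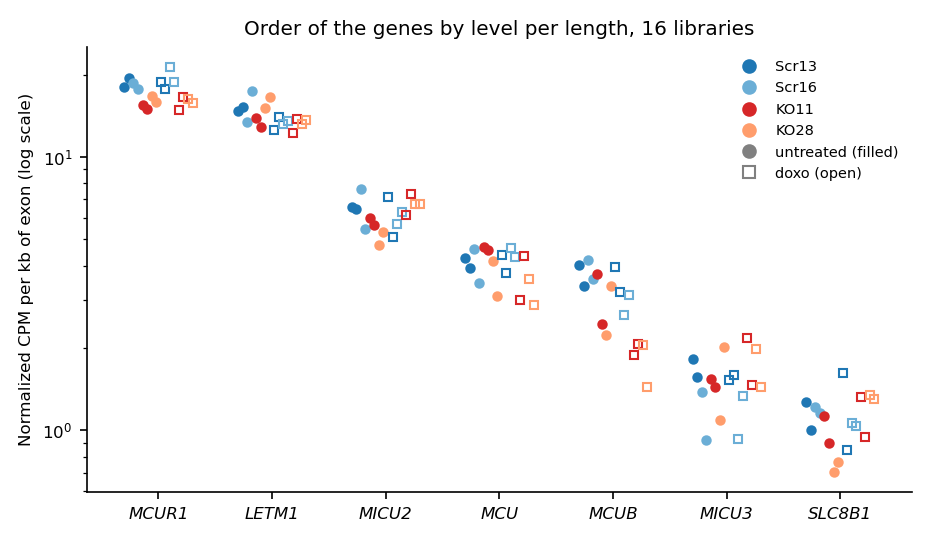
Normalized CPM per kilobase of exon (log scale) of the 7 genes, ordered by their mean over 16 libraries, with each point 1 library, filled circles untreated, open squares after doxorubicin, and colours for the 4 clones. MCUR1 and LETM1 lie between 12.3 and 21.3 CPM per kilobase, above all libraries of the other 5 genes.

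To ask whether the genes of the complex differed with the genotype, libraries labelled KO were compared with Scr libraries within each treatment. The test was limma on log2(normalized CPM + 1), with Benjamini-Hochberg adjustment over all genes tested and a threshold of 0.05, and fold changes are on that scale. In untreated cells 0 of the 7 genes passed the threshold with limma, edgeR or DESeq2, and 1, MCUR1, was at an unadjusted p under 0.05 with each, beside 4.84% of the 14364 genes tested that were called and 2051 that were at an unadjusted p under 0.05 with limma. After doxorubicin 2 of the 7 passed, MCUB and MCUR1, both lower in the libraries labelled KO, beside 8.69% of the 14572 genes tested in either direction and 4.17% called lower. The median log2 fold change of the 7 was -0.22 untreated and -0.010 after doxorubicin, against -0.0073 and 0.014 over all genes tested. In bulk RNA, fewer cells of a type and less RNA per cell cannot be told apart.

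The RNA of MCU, the pore, did not separate the genotypes. Without treatment it had 19.3 and 17.7 normalized CPM in Scr13, 20.9 and 15.7 in Scr16, 21.2 and 20.7 in KO11, and 18.9 and 14.005 in KO28. After doxorubicin it had 19.9 and 17.1 in Scr13, 21.01 and 19.5 in Scr16, 13.6 and 19.7 in KO11, and 16.2 and 13.03 in KO28. The groups overlapped in both treatments, with 3 of the 4 KO libraries under every Scr library after doxorubicin and replicate 2 of KO11 among them. The log2 fold change of KO against Scr was 0.011 without treatment (95% interval -0.31 to 0.33) and -0.31 after doxorubicin (-0.64 to 0.023, adjusted p = 0.290 with limma). The exact permutation test, two-sided, gave p = 0.0857 after doxorubicin. From earlier work, the paper states that MCU expression and the uniporter current are lower with the deletion, in part through less CREB. The values of MCU here, and of CREB1 above, are of RNA, and protein and current were not measured.

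MCUB, the subunit that lowers the conductance of the pore, was lower in the libraries labelled KO after doxorubicin. It had 14.1 and 11.4 normalized CPM in Scr13, 9.41 and 11.2 in Scr16, 6.72 and 7.37 in KO11, and 7.33 and 5.14 in KO28. The groups did not overlap, and both KO clones lay under both Scr clones. The log2 fold change was -0.71 (SE 0.20, adjusted p = 0.0249 with limma), and the exact permutation p was 0.0286, the smallest that 4 libraries against 4 allow. Groups did not overlap for 13.2% of all genes tested after doxorubicin. Without treatment MCUB had 14.4 and 12.03 normalized CPM in Scr13, 14.98 and 12.8 in Scr16, 13.3 and 8.73 in KO11, and 7.98 and 12.04 in KO28. Here the replicates of each KO clone lay far apart and the groups overlapped, with a log2 fold change of -0.36 (95% interval -0.73 to 0.014, adjusted p = 0.376 with limma).

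The call on MCUB after doxorubicin stood near the threshold. It was lost without replicate 1 or 2 of Scr13 (adjusted p = 0.0803 and 0.0569), replicate 2 of Scr16 (0.0534), replicate 1 of KO11 (0.0666) or replicate 2 of KO28 (0.0868), and the log2 fold change stayed between -0.80 and -0.61 without any 1 library. With clone means as the replicates, 2 against 2, the adjusted p was 0.0689 with limma. The call also ended without clone Scr13, KO11 or KO28, so it passed in 1 of 4 fits without a clone. It ended without a filter on low values too.

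MCUR1, the scaffold for assembly, was lower in the libraries labelled KO after doxorubicin by a smaller amount. It had 114 and 108 normalized CPM in Scr13, 129 and 114 in Scr16, 89.8 and 100.5 in KO11, and 98.4 and 95.7 in KO28. All 4 KO libraries were under all 4 Scr libraries, and groups did not overlap for 13.2% of all genes tested in either direction. MCUR1 had a log2 fold change of -0.27 (SE 0.080, adjusted p = 0.0386 with limma, exact permutation p = 0.0286). Without treatment it had 109 and 118 in Scr13, 113 and 107 in Scr16, 93.7 and 90.7 in KO11, and 101 and 96.1 in KO28. The groups again did not overlap, as for 9.29% of all genes tested without treatment, and the log2 fold change was -0.22 (SE 0.074), which did not pass the threshold (adjusted p = 0.10 with limma, exact permutation p = 0.0286).

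The call on MCUR1 after doxorubicin was also close to the threshold. It was lost without replicate 1 of Scr13 (adjusted p = 0.0573), replicate 1 or 2 of Scr16 (0.103 and 0.0681), replicate 1 or 2 of KO11 (0.157 and 0.0522) or replicate 1 or 2 of KO28 (0.0656 and 0.0860). It was lost with clone means as the replicates as well (adjusted p = 0.0699 with limma), and the log2 fold change without any 1 library lay between -0.30 and -0.22. The call also ended without clone Scr16, KO11 or KO28, so it passed in 1 of 4 fits without a clone. It ended without a filter on low values too.

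**Figure D2:**
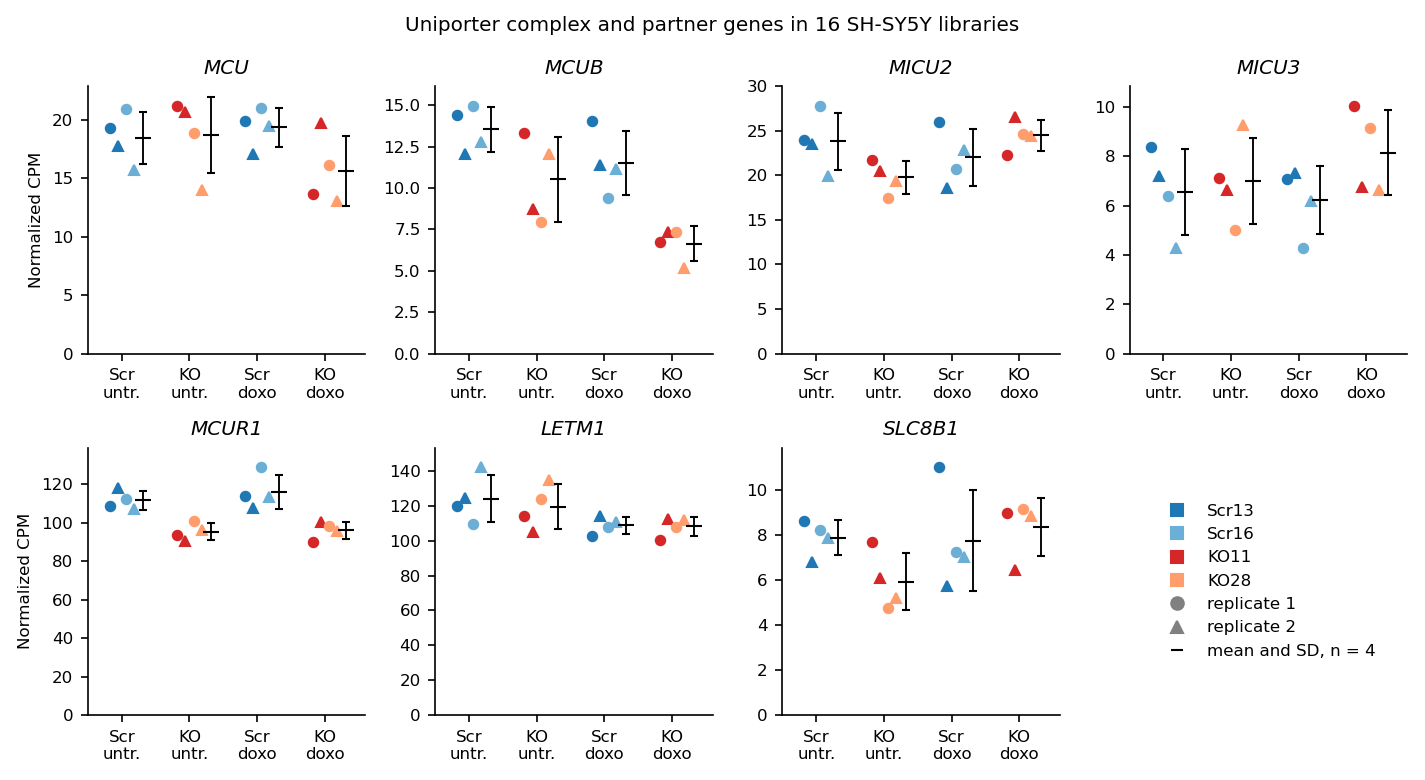
Normalized CPM (linear axis from 0) of the 7 genes in each of the 16 libraries, by genotype and treatment, with colours for the clones, circles for replicate 1, triangles for replicate 2, and bars for the mean and SD of 4 libraries. MCUB and MCUR1 after doxorubicin are the genes whose KO and Scr libraries do not overlap, and MCUR1 is also apart without treatment. Over all genes tested, groups did not overlap for 13.2% after doxorubicin and 9.29% without treatment.

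The gatekeepers and exchangers gave no call between genotypes in either treatment. MICU2 ranged from 19.9 to 27.8 normalized CPM in untreated Scr (median 23.7) and from 17.4 to 21.7 in untreated KO (median 19.97), and from 18.5 to 26.0 in Scr and 22.3 to 26.6 in KO after doxorubicin. Its estimates lay on both sides of 0, with log2 fold changes of -0.25 untreated (95% interval -0.53 to 0.030) and 0.15 after doxorubicin (-0.13 to 0.44). MICU3 (ENSG00000155970, chr8:17027238-17122644 on the + strand), the form best known from the nervous system, had 6.56 ± 1.74 normalized CPM in untreated Scr, 7.01 ± 1.75 in untreated KO, 6.21 ± 1.38 in Scr and 8.14 ± 1.72 in KO after doxorubicin (SD, n = 4 each). The groups of MICU3 overlapped in both treatments, with log2 fold changes of 0.089 untreated (95% interval -0.37 to 0.55) and 0.35 after doxorubicin (-0.11 to 0.81). LETM1 had 124 ± 13.5 and 119 ± 12.8 normalized CPM in untreated Scr and KO, and 109 ± 4.85 and 108 ± 5.62 after doxorubicin (SD, n = 4 each). Its 95% intervals of KO against Scr, -0.24 to 0.13 untreated and -0.17 to 0.15 after doxorubicin, were the narrowest with those of MCUR1. SLC8B1, the route of calcium out of the matrix, had 7.87 ± 0.785 normalized CPM in untreated Scr and 5.92 ± 1.28 in untreated KO, and 7.74 ± 2.26 and 8.35 ± 1.29 after doxorubicin (SD, n = 4 each). The log2 fold change of SLC8B1 was -0.37 untreated (95% interval -0.78 to 0.037) and 0.12 after doxorubicin (-0.33 to 0.57).

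To ask whether doxorubicin moved the genes of the complex, treated libraries were compared with untreated ones within each genotype, with a term for the clone. In Scr cells 0 of the 7 genes passed with limma, edgeR or DESeq2, and 1, LETM1, was at an unadjusted p under 0.05 with each, beside 12.3% of the 14378 genes tested that were called and 3716 that were at an unadjusted p under 0.05 with limma. In the libraries labelled KO 1 of the 7 passed, MCUB, which fell, beside 19.6% of the 14513 genes tested in either direction and 8.35% called lower. As a check of the treatment, all 5 p53 target genes listed for it (CDKN1A, MDM2, GDF15, BBC3 and FDXR) rose in both genotypes, GDF15 by 4.36 in Scr and 4.53 in KO on the log2 scale (SE 0.21 and 0.15, adjusted p = 1.49e-10 and 4.14e-18 with limma). Between genotypes, 2 of the 5 were higher in untreated KO and 3 of the 5 in KO after doxorubicin, beside 4.84% and 8.69% of all genes tested that were called in either direction, and none was called lower. DESeq2 called 3 of the 5 without treatment, MDM2 added.

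MCUB went from 13.3, 8.73, 7.98 and 12.04 normalized CPM in the untreated KO libraries to 6.72, 7.37, 7.33 and 5.14 after doxorubicin. All treated KO libraries lay under all untreated ones, as for 19.8% of all genes tested in either direction, and the nearest pair was 7.37 and 7.98. The log2 fold change was -0.58 (SE 0.20, adjusted p = 0.0450 with limma, exact permutation p = 0.0286). This comparison shares the treated KO libraries with that of the genotypes after doxorubicin. The call was lost without replicate 1 of untreated KO11 (adjusted p = 0.181), replicate 2 of untreated KO28 (0.122), replicate 1 or 2 of treated KO11 (0.107 and 0.0706) or replicate 2 of treated KO28 (0.130), without clone KO11 or KO28 (0.306 and 0.126), and without the clone term (0.0508). It ended without a filter on low values too. In Scr cells MCUB had a log2 fold change of -0.22 (95% interval -0.58 to 0.13, adjusted p = 0.439 with limma), with 9.41 to 14.1 normalized CPM after doxorubicin and 12.03 to 14.98 before.

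Of the other genes in the libraries labelled KO, MICU2 had a log2 fold change of 0.30 after doxorubicin (95% interval 0.029 to 0.56, adjusted p = 0.115 with limma). All its treated libraries lay above all untreated ones, and groups did not overlap for 19.8% of all genes tested in either direction. SLC8B1 had 0.44 (0.014 to 0.87, adjusted p = 0.144) with overlapping groups, and MCU had -0.25 (-0.57 to 0.078, adjusted p = 0.303). In Scr cells LETM1 had a log2 fold change of -0.18 (-0.35 to -0.0077, adjusted p = 0.172 with limma). The estimates of MCUR1 were 0.053 in Scr (-0.11 to 0.21) and 0.0098 in KO (-0.15 to 0.17).

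**Figure D3:**
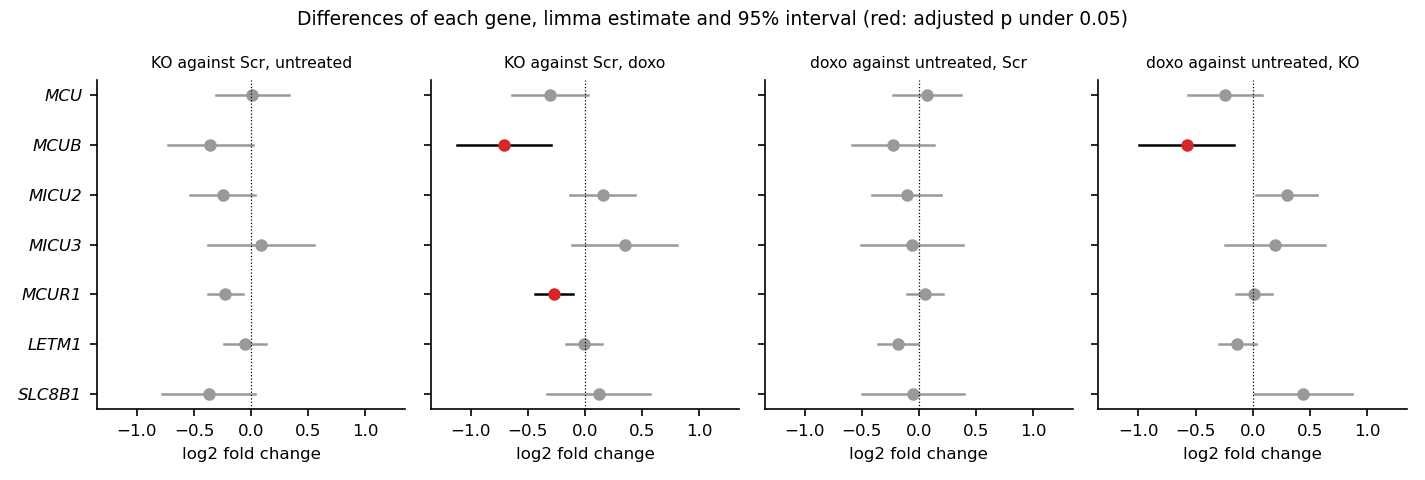
Log2 fold changes (points) with 95% intervals (lines) of the 7 genes from limma in the 4 comparisons, with red points for an adjusted p under 0.05. MCUB (-0.71) and MCUR1 (-0.27) between genotypes after doxorubicin, and MCUB (-0.58) with doxorubicin in the libraries labelled KO, are the red points.

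Whether the response to doxorubicin differed between genotypes was tested as the interaction over the 16 libraries. It passed for 0 of the 7 genes with limma, edgeR or DESeq2, and 1, MICU2, was at an unadjusted p under 0.05 with each. Of the 15325 genes tested, 0.0261% were called (4 genes with limma, 10 with edgeR and 58 with DESeq2), and 1274 were at an unadjusted p under 0.05 with limma. A difference in the drug response was therefore not shown for MCUB, whose interaction was -0.35 (95% interval -0.90 to 0.19, adjusted p = 0.786 with limma). For MCU it was -0.32 (-0.76 to 0.12), for SLC8B1 0.49 (-0.12 to 1.10) and for MICU2 0.40 (0.014 to 0.80, adjusted p = 0.589 with limma). MCUR1, with 1318 to 2767 reads per library, had -0.043 (-0.26 to 0.17).

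The level of MCUB relative to MCU, both per kilobase of exon, is given as a description of the pore subunits. The ratio was 0.948, 0.863, 0.910 and 1.033 in the untreated Scr libraries and 0.799, 0.536, 0.536 and 1.09 in the untreated KO libraries. After doxorubicin it was 0.899, 0.849, 0.569 and 0.729 in Scr and 0.627, 0.475, 0.576 and 0.501 in KO. The ratios of KO28 without treatment, 0.536 and 1.09, spanned those of all 4 untreated Scr libraries. After doxorubicin 2 KO libraries, replicate 1 of KO11 and of KO28, lay above the lowest Scr library, so the groups overlapped.

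The 7 genes did not move as 1 unit over the 16 libraries. Pearson's r of log2(normalized CPM + 1), as a description over libraries that share genotype and clone, was 0.70 between MICU2 and SLC8B1, 0.48 between MCU and MCUB, 0.48 between MCUB and MCUR1 and 0.44 between MCU and MCUR1. It was -0.50 between MICU3 and MCUR1 and -0.45 between LETM1 and SLC8B1. Among 11487 genes with a mean of at least 5 normalized CPM, the genes most like MCUB were HDAC9, CEP250 and DIXDC1 (r = 0.88, 0.88 and 0.86). Those most like MCUR1 were NSUN7, SNAP25 and ITGA1 (0.93, 0.90 and 0.89), and those most like MCU were TMEM123, HMMR and ATG4C (0.83, 0.82 and 0.82).

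Around the pore, 16 genes that assemble or regulate the uniporter or inner membrane calcium exchange were followed. Without treatment 0 of the 16 were called between genotypes with limma, edgeR or DESeq2 (2 at an unadjusted p under 0.05), and 2 were lower in KO after doxorubicin, beside 4.84% of all genes tested that were called without treatment, and 8.69% called and 4.17% called lower after doxorubicin. These were UCP2, an uncoupling protein of the inner membrane, with 51.4 ± 2.81 normalized CPM in Scr and 40.7 ± 1.07 in KO (SD, n = 4 each), and SLC25A23, a calcium-binding carrier of ATP-Mg and phosphate, with 94.3 ± 7.33 and 77.02 ± 5.02. The log2 fold changes were -0.33 and -0.29 (SE 0.10 and 0.086, adjusted p = 0.0327 and 0.0362 with limma). With doxorubicin 3 of the 16 were called in Scr and 3 in KO, beside 12.3% and 19.6% of all genes tested. In Scr cells UCP2 rose by 0.64 and PPIF, the cyclophilin of the permeability transition pore, and PRMT1, an arginine methyltransferase, fell by 0.32 and 0.25 on the log2 scale. PRMT1 in Scr was not called with edgeR, and its groups overlapped (exact permutation p = 0.0857). In KO, PPIF fell by 0.42 and PRMT1 fell by 0.41, and LETMD1 rose by 0.36. UCP2 had 0.27 in KO with overlapping groups. It was at an unadjusted p under 0.05 there with limma, edgeR and DESeq2, and none of them called it. LETMD1 had 0.35 in Scr with overlapping groups (exact permutation p = 0.0571) and was called there with DESeq2 only. In KO, edgeR and DESeq2 each called 4 of the 16, LETM2 added. LETM2 had a log2 fold change of -0.51 in KO (adjusted p = 0.0568 with limma).

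Upstream of the uniporter, calcium reaches mitochondria at contacts with the endoplasmic reticulum through inositol trisphosphate receptors and the outer membrane channel VDAC. Of 16 genes for this entry, 2 were called between genotypes without treatment and 1 after doxorubicin, beside 4.84% and 8.69% of all genes tested, and both genes were such receptors. ITPR3 had 13.1, 8.75, 7.67 and 13.9 normalized CPM in the untreated Scr libraries and 3.42, 4.34, 4.76 and 8.24 in the untreated KO libraries, with 1 KO library above the lowest Scr library. After doxorubicin it had 19.0, 20.3, 36.0 and 23.2 in Scr and 10.9, 7.43, 10.4 and 5.56 in KO, with no overlap, as for 13.2% of all genes tested. Its log2 fold changes of KO against Scr were -0.96 (SE 0.24, adjusted p = 0.0205 with limma) and -1.42 (SE 0.21, adjusted p = 0.0001). ITPR2 was higher in untreated KO, with 14.7 ± 2.06 against 8.00 ± 1.79 normalized CPM (SD, n = 4 each), and a log2 fold change of 0.81 (SE 0.19, adjusted p = 0.0102 with limma). With doxorubicin 1 of the 16 was called in Scr, beside 12.3% of all genes tested, and ITPR3 rose there by 1.11 on the log2 scale. In KO 0 of the 16 were called with limma, edgeR or DESeq2 (6, 4 and 5 at an unadjusted p under 0.05), beside 19.6% of all genes tested. ITPR3 had a log2 fold change of 0.64 in KO (95% interval 0.15 to 1.14, adjusted p = 0.0616 with limma) with overlapping groups, and its interaction was -0.46 (-1.15 to 0.23, adjusted p = 0.781 with limma), so a difference in its drug response was not shown.

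The 15 genes of calcium-responsive mitochondrial metabolism gave 1 call between genotypes in each treatment, GPD2 both times, beside 4.84% and 8.69% of all genes tested. GPD2, the mitochondrial glycerol-3-phosphate dehydrogenase, which binds calcium on the outer side of the inner membrane, had 35.2, 36.0, 29.2 and 36.4 normalized CPM in untreated Scr and 14.2, 14.6, 7.18 and 10.3 in untreated KO. After doxorubicin it had 37.7, 28.5, 23.0 and 30.4 in Scr and 11.8, 13.2, 10.1 and 11.001 in KO. The groups were far apart in both treatments, and groups did not overlap for 9.29% of all genes tested untreated and 13.2% after doxorubicin. The log2 fold changes of GPD2 were -1.53 (SE 0.18, adjusted p = 9.41e-06 with limma) and -1.29 (SE 0.16, adjusted p = 9.54e-06). With doxorubicin, IDH3B of the isocitrate dehydrogenase fell by 0.28 in Scr and fell by 0.44 in KO, and PDHB of the pyruvate dehydrogenase fell by 0.38 in Scr on the log2 scale, beside 12.3% and 19.6% of all genes tested that were called. IDH3B in Scr was not called with edgeR, and DESeq2 called 3 of the 15 in Scr, DLAT added.

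Of 16 calcium pumps, exchangers and store-operated channels outside mitochondria, 0 were called between genotypes without treatment with limma, edgeR or DESeq2 (2 at an unadjusted p under 0.05), and 2 were higher in KO after doxorubicin, beside 4.84% and 8.69% of all genes tested that were called in either direction. These were the plasma membrane pump ATP2B3, with 57.6 ± 3.29 normalized CPM in Scr and 75.6 ± 3.70 in KO, and the sodium-calcium exchanger SLC8A3, with 123 ± 3.4998 and 151 ± 7.29 (SD, n = 4 each). The log2 fold changes were 0.39 and 0.29 (SE 0.087 and 0.070, adjusted p = 0.00487 and 0.0114 with limma). DESeq2 called 3 of the 16 between genotypes after doxorubicin, ORAI2 added. Doxorubicin was followed by 5 calls in Scr, 4 of them higher, and 8 in KO, 6 of them higher, beside 12.3% and 19.6% of all genes tested that were called in either direction. DESeq2 called 6 in Scr, ATP2A3 added, and 9 in KO, ATP2A2 added. In KO edgeR called 7, without ORAI2. ORAI3, a subunit of store-operated channels, rose by 0.87 in Scr and 0.98 in KO, and ATP2B3 rose by 0.80 and 0.89 on the log2 scale. The groups of ORAI3 overlapped in KO (exact permutation p = 0.0571). In Scr the exchanger SLC8A2 rose by 0.64 and the pump ATP2B2 rose by 0.51. In KO the exchanger SLC8A1 fell by 0.88 and the reticulum pump ATP2A3 rose by 0.83. In the other genotype, SLC8A2 rose by 0.40 in KO and was called there as well. ATP2A3 had 0.56 in Scr and passed with DESeq2 only. ATP2B2 had 0.23 in KO and SLC8A1 had -0.47 in Scr, both with overlapping groups and no call with limma, edgeR or DESeq2. The median log2 fold changes of KO against Scr after doxorubicin were -0.057 over the 16 genes of assembly and regulation, 0.024 over the 16 of entry, 0.061 over the 15 of metabolism and 0.070 over the 16 of pumps and exchangers, against 0.014 over all genes tested.

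General mitochondrial markers, 20 genes of import, respiration, proteostasis and mitochondrial DNA, gave 0 calls between genotypes in either treatment with limma, edgeR or DESeq2 (1 untreated and 2 after doxorubicin at an unadjusted p under 0.05), beside 4.84% and 8.69% of all genes tested that were called, and their median log2 fold changes were 0.013 untreated and 0.0033 after doxorubicin. With doxorubicin 2 of the 20 fell in each genotype, HSPD1, the chaperonin of the matrix, in both (-0.34 in Scr and -0.39 in KO), PHB1 in Scr (-0.25) and TOMM40 in KO (-0.48), beside 12.3% and 19.6% of all genes tested that were called in either direction. TOMM40 in Scr had -0.28 and was called with DESeq2 only. PHB1 in KO had -0.20 with no overlap of the groups, as for 19.8% of all genes tested, and was not called with limma, edgeR or DESeq2. The median log2 fold changes of the 20 genes with doxorubicin were -0.11 and -0.12, against -0.012 and 0.015 over all genes.

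The cells were checked against markers of their labelled type and of others. Adrenergic neuroblastoma markers summed to 5882 to 6920 normalized CPM in every library, with PHOX2A, DBH, GATA3, HAND2, ISL1 and STMN2 present throughout. CHGA was low, with a median of 1.40 normalized CPM (0.356 to 26.4), and TH was at or under 3 reads in 8 libraries. Between genotypes 2 of the 8 tested were called without treatment (GAP43 lower in KO, GATA3 higher) and 1 after doxorubicin (GAP43 lower), beside 4.84% and 8.69% of all genes tested. DESeq2 called 2 of the 8 after doxorubicin, HAND2 added. With doxorubicin 4 of the 8 were called in Scr, HAND2 and STMN2 higher (log2 fold changes 0.31 and 0.26) and GAP43 and ISL1 lower (-0.33 and -0.27), beside 12.3% of all genes tested that were called. In KO 5 of the 8 were called, beside 19.6% of all genes tested, HAND2 higher (0.21) and CHGA, ISL1, DBH and GAP43 lower (-1.36, -0.38, -0.36 and -0.33), and DESeq2 called STMN2 in place of CHGA. Mesenchymal or fibroblast markers moved with the genotype. Their sum was 138 to 617 normalized CPM in untreated Scr and 641 to 963 in untreated KO, and 136 to 437 and 646 to 1015 after doxorubicin, with VIM the most abundant in every library. Of those tested, 6 of 7 without treatment and 6 of 6 after doxorubicin were higher in KO (LUM, COL3A1, FN1, COL1A1, DCN and VIM), beside 4.84% and 8.69% of all genes tested that were called, and COL1A2 was at 0 in 2 libraries. Over both treatments, 4 of these markers passed the filter on low values in the Scr libraries and 7 in the KO libraries. Markers that passed in KO only could enter through the libraries where they were high, so the filter favoured their direction. DESeq2 called 3 of the 7 without treatment (COL1A1, DCN and LUM) and 6 of 6 after doxorubicin. With doxorubicin 0 of 4 tested were called in Scr with limma, edgeR or DESeq2 (0 at an unadjusted p under 0.05), and 2 of 7 were called in KO, DCN higher and COL1A2 lower (log2 fold changes 1.22 and -0.98), beside 19.6% of all genes tested. The part of these markers in the differences of MCUB and MCUR1 was not tested. Schwann or glial markers summed to at most 3.29 normalized CPM and epithelial markers to at most 1.82, and the haematopoietic marker LYZ was at 0 in 15 of 16 libraries.

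**Figure D4:**
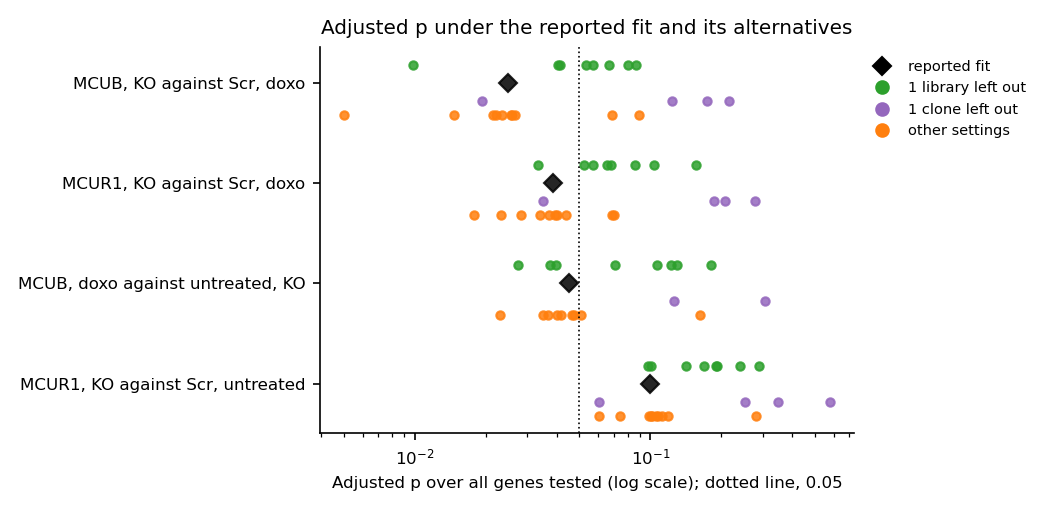
Adjusted p (log scale) of the 3 calls and of MCUR1 without treatment, under the reported fit (black) and with 1 library left out (green), 1 clone left out (purple) or another setting (orange), with a dotted line at 0.05. The 3 calls lie close to the line and cross it in many alternatives, and MCUR1 without treatment stays to its right in all of them.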

How the data were processed

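Poly(A) RNA of 16 SH-SY5Y libraries was prepared with a directional kit. The submitters' processing notes name bcl2fastq, HISAT2 2.1.0, HTSeq, edgeR and GRCh38, and the annotation and use of strand in counting are not given in the sources used here. The authors deposited a signal per gene and library, read counts scaled to normalized CPM. All values (100%) were whole reads within 0.001 read (largest deviation 5.39e-05), so counts were recovered, and edgeR on them called 636 and 1194 genes between genotypes. Factors lay between 0.974 and 1.03, and both tables shared 1 scale (geometric mean of column sums over 1e6, 0.998 over both). Library columns not assigned numbered 0. Deposited fold changes, p-values and q-values of the authors' comparison were not used.

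limma 3.58.1 with an abundance trend (R 4.3.3) was run on log2(normalized CPM + 1) for genes that reached 1 normalized CPM in 4 or more libraries, with no covariate between genotypes and the clone as a term for doxorubicin and the interaction. For each gene named with it, an exact permutation test (two-sided, smallest p 0.0286) was added. GENCODE 29 gave names and positions for 95.9% of identifiers. A floor of 3 reads was 0.118 to 0.285 CPM, for counting error only. The chi-square per degree of freedom between replicates was 7.79 to 16.9, above the counting error, and each library was counted as 1 replicate. Scripts were tested on simulated data. Every member was named. Of each other list, the called genes were named, at most 4 per comparison by size of change, all 5 of the treatment check, and all called markers. Some genes named in 1 genotype were also given in the other, and some genes called with another tool were added. The 3 genes most like MCU and each called member were taken by Pearson's r. From the lists, 2 further genes were removed and are not reported here. Members and lists were chosen with earlier results of these data known. Alternatives were other pseudocounts, filters and scaling, edgeR 4.0.16, DESeq2 1.42.0, a replicate block, clone terms or means, and each library or clone left out.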

Additional observations from a re-analysis of the deposited data

Results flagged for a closer look

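SLC8B1 in replicate 2 of KO11 after doxorubicin had 6.42 normalized CPM, and the other 3 libraries labelled KO after doxorubicin had 8.85 to 9.16. The gap to the nearest library was 0.887 of the range of the group, above Dixon's 95% critical value for 4 libraries. It was the only 1 of 28 groups of 4 examined over the 7 genes, and chance flags about 1 in 20 such groups.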

How the results depend on the processing

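Of 774 results of the 7 genes under alternatives, 743 kept their side of the threshold, 31 lost a call, 0 gained one and 0 of the called ones changed direction. All 31 belonged to the 3 calls. MCUB between genotypes after doxorubicin passed in 12 of 22 alternatives (adjusted p 0.00502 to 0.216), MCUR1 in 10 of 22 (0.0179 to 0.280) and MCUB with doxorubicin in KO in 10 of 19 (0.0230 to 0.306). Without a filter on low values, where more genes were tested, the adjusted p rose to 0.0895, 0.0688 and 0.162. The 3 calls held with edgeR (0.0234, 0.0395 and 0.0367) and DESeq2 (0.00502, 0.0179 and 0.0230). MCUB after doxorubicin was lost without clone Scr13 (0.175), KO11 (0.123) or KO28 (0.216), MCUR1 without Scr16 (0.208), KO11 (0.280) or KO28 (0.187), and MCUB with doxorubicin in KO without KO11 (0.306) or KO28 (0.126).

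Counts of called genes over the whole tables moved as follows, and the cause was not tested beyond fewer libraries or more genes entering. Between genotypes without treatment, 695 genes became 368 without a filter, 330 without clone Scr13 and 327 without Scr16, and 508 to 678 without 1 library. After doxorubicin, 1266 became 510 without clone KO11 and 575 without KO28, and 814 to 1314 without 1 library, the lowest without replicate 1 of KO11. With doxorubicin in Scr, 1774 became 831 without a filter, 237 without clone Scr13 and 781 without Scr16, and 1100 to 1739 without 1 library. In KO, 2846 became 995 without clone KO11, and 2049 to 2903 without 1 library. The interaction count of 4 became 1 with a pseudocount of 0.1, 2 without a filter, 10 with edgeR, 58 with DESeq2, 1 to 19 without 1 library, and 10, 1, 0 and 1 without clones Scr13, Scr16, KO11 and KO28.

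Libraries with the same replicate number did not deviate together (correlations of deviations -0.10 to 0.12 over 28 pairs), so the number was not taken as a pairing. With the replicate block the counts were 697, 1365, 2113, 2948 and 25, and the calls on the 7 genes held (adjusted p = 0.0259, 0.0341 and 0.0417 with limma). MICU3 with 45 to 213 reads and SLC8B1 with 71 to 219 reads per library had the fewest reads and the largest relative counting error of the 7. Over all genes the spread between replicates was above the counting error (chi-square per degree of freedom 7.79 to 16.9), and how far depth set the width of their intervals was not tested.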
